A study of Mus musculus with 12 samples.

Results

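The proteasome is the large protease that degrades ubiquitin-tagged proteins. Its barrel-shaped core is built from rings of alpha subunits, which gate the entry, and rings of beta subunits, some of which carry the proteolytic sites. A regulatory particle caps the core, with ATPases that unfold substrates and non-ATPase subunits that bind ubiquitin or remove it, and in neurons proteasome activity is known to be needed for lasting synaptic plasticity. The genes described here are those whose symbol begins with Psm, a letter from a to g and a number. They were taken from a list of poly(A) sites (PASs), the positions at which transcripts are cleaved and polyadenylated. The symbols cover 48 of the 16627 genes in the list, and 110 of its 56204 entries. One of the 48, *Psmc3ip*, carries such a symbol because its protein binds a proteasome ATPase. It is known for a role in meiotic recombination and is not a subunit, so it is counted with the others and named apart.

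The list comes from 3′READS+, a sequencing method that captures the 3′ ends of polyadenylated RNA, applied to 12 libraries of acute hippocampal mini-slices from C57BL/6 wild-type mice, given as 3 months old in the sample labels. Slices were perfused with forskolin at 50 uM and then with forskolin, 30 mM KCl and 10 mM calcium to induce chemical long-term potentiation (LTP), or with 0.2% DMSO as control, and were frozen 1 hr or 3 hr later. Each of the 4 groups, LTP and control at each time, holds 3 libraries, numbered by animal. The paper set control 3 hr sample 3 aside as an outlier by clustering, and whether that sample added sites to the list was not examined. The dentate gyrus had been trimmed away, and each library is a mix of the cell types of the remaining slice. The labels give mm9 as the genome build, and all positions below are those of the list. The 12 columns of read counts in the deposited table carry names that match no label of a sample. A column was assigned to a sample only through its name, so the read counts were not used in any form, the depth behind each site was not examined, and no level and no difference between LTP and control slices is given. What follows describes where transcripts of the proteasome genes can end according to the list that all libraries share, with no measure of how often each end is used. The numbers of PASs also include 5 sites on the strand opposite to the gene, labelled UA and read as upstream antisense.

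A single PAS was listed for 24 of the 48 genes (50.0%), against 5475 of all 16627 listed genes (32.9%). In each of these 24 genes the site carried the label exon3, read here as the 3′-most exon. The median was 1.5 PASs per proteasome gene and 2 per listed gene, and the highest numbers were 8 and 40. Among the 39 genes with symbols from Psma to Psmd other than *Psmc3ip*, which hold the subunits of the core and the regulatory particle and a few assembly factors, 22 (56.4%) had a single PAS. Values for proteasome genes and for all listed genes are set side by side as a description and were not tested, since both are counts from a single list and its sites have no replicates.

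**Figure D1:**
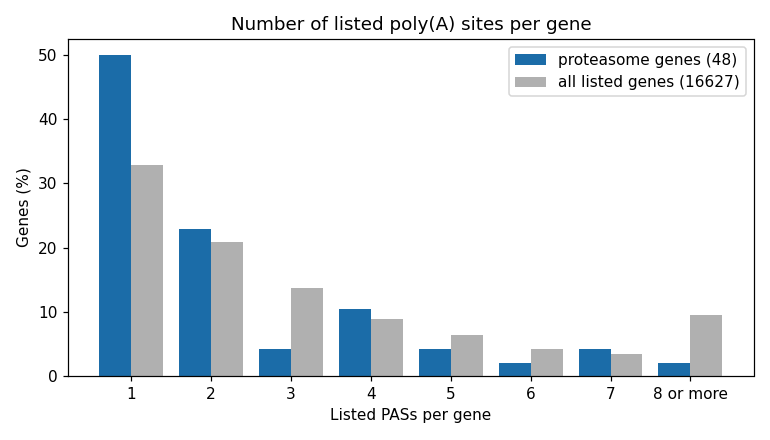
Share of genes (%, vertical axis) by the number of PASs listed per gene (horizontal axis), for the 48 proteasome genes and all 16627 listed genes. Genes with 1 PAS make up 50.0% of the proteasome genes and 32.9% of all listed genes.

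Of the 110 entries, 74 (67.3%) were labelled exon3, against 55.7% of all entries in the list. Intronic labels were given to 14 entries (12.7%), against 27.0% in the whole list. Of these, 12 were intron_Comp and 2 were intron_Skip, names read here as an intronic site that extends the upstream exon and a site in an otherwise skipped terminal exon. A further 7 entries carried exon53 and 1 exon53ext, all of them in *Psmb11*, a gene with no exon3 entry. The label exonI, read as an internal exon, stood at 6 entries (5.45%), against 1.27% in the whole list. UA, read as upstream antisense, stood at 5 entries (4.55%, against 7.11%), and exon3ext, read as sequence beyond the annotated end, at 3 (2.73%, against 6.06%). Sites were not filtered by read number here, so sites that are rarely used can count in every one of these shares. The positions fit the readings of UA and exon3ext within the proteasome genes, while the readings of the other labels were not checked against an annotation. All 5 UA sites lay on the strand opposite to the gene, all 105 other sites lay on the strand of the gene, and all 3 exon3ext sites lay beyond the last exon3 site. None of the 110 entries was listed under more than 1 gene. In the whole list 656 entries were, or 1.17%, a share at which 110 entries need not hold any.

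**Figure D2:**
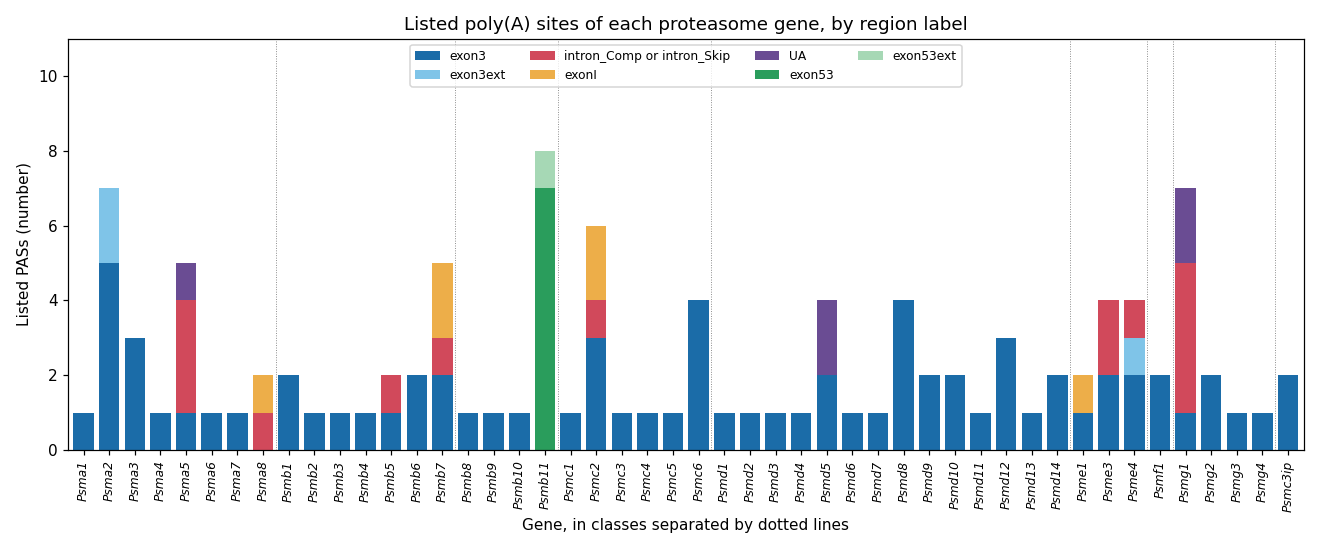
Number of listed PASs (vertical axis) of each of the 48 proteasome genes, stacked by region label, with the classes in the order alpha ring, constitutive beta ring, immuno- and thymoproteasome, ATPases, non-ATPase subunits with assembly factors, activators, inhibitor, assembly chaperones and *Psmc3ip*. The bar is a single exon3 site in 24 genes, and *Psmb11*, *Psma2* and *Psmg1* stand highest with 8, 7 and 7 sites.

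The 8 genes of the alpha ring held 21 PASs. *Psma1*, *Psma4*, *Psma6* and *Psma7* had 1 exon3 site each, at positions 121408122 on chromosome 7, 54805849 on chromosome 9, 56519441 on chromosome 12 and 179771079 on chromosome 2. *Psma2* (Ensembl identifier ENSMUSG00000015671.11), on the plus strand of chromosome 13, had the most sites of the class, 7, and the widest exon3 span of all 48 genes. Its first 4 exon3 sites, at 14717876, 14717940, 14718015 and 14718092, lay 64, 75 and 77 nt apart, and the last one followed 1592 nt further downstream at 14719684. Sites labelled exon3ext lay 217 and 790 nt beyond it. The exon3 sites of *Psma2* thus formed a tight group and a distant single site, 1808 nt apart at the outermost. *Psma3* showed the same arrangement on a smaller scale, with sites at 72095504 and 72095540 on chromosome 12, 36 nt apart, and a last site 1328 nt downstream at 72096868.

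*Psma5* was built the other way round, with a single exon3 site and several upstream ones. On the plus strand of chromosome 3 its exon3 site lay at 108082892. The list gives it an intron_Comp site at 108062998, 19894 nt upstream, and 2 intron_Skip sites at 108075453 and 108078601, 7439 and 4291 nt upstream. These were the only intron_Skip sites among the 48 genes. A UA site lay at 108057246 on the minus strand, 5752 nt before the first intronic site. *Psma8*, which encodes an alpha subunit known from the testis, had no exon3 site, and its sites at 14915914 and 14920806 on chromosome 18 were labelled intron_Comp and exonI.

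The 7 genes of the constitutive beta ring held 14 PASs. The catalytic subunits of this ring are encoded by *Psmb5*, *Psmb6* and *Psmb7*, and each of them had more than 1 site, as did 67.1% of all listed genes. *Psmb6* had exon3 sites at 70341155 and 70341360 on chromosome 11, 205 nt apart, and no other label. *Psmb5*, on the minus strand of chromosome 14, had 1 exon3 site at 55232949 and an intron_Comp site 995 nt upstream of it at 55233944. *Psmb7* had the most sites of the class, 5, on the minus strand of chromosome 2. Its intron_Comp site at 38494937 lay 51321 nt upstream of the first exon3 site, 2 exonI sites lay at 38446289 and 38446229, and the exon3 sites at 38443616 and 38443556 were 60 nt apart. Among the subunits without catalytic activity, *Psmb1* had 2 exon3 sites, at 15612923 and 15612681 on chromosome 17. They were 242 nt apart, the widest exon3 span of the class, while *Psmb2*, *Psmb3* and *Psmb4* had 1 exon3 site each.

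In cells exposed to interferon, *Psmb8*, *Psmb9* and *Psmb10* encode the catalytic subunits that replace those of *Psmb5*, *Psmb6* and *Psmb7*, respectively, to form the immunoproteasome. The replacements had 1 exon3 site each, at 34338391 and 34319117 on chromosome 17 for *Psmb8* and *Psmb9* and at 108459631 on chromosome 8 for *Psmb10*. No other site was listed for the replacements. Their constitutive counterparts had 2, 2 and 5 listed sites, of which 1, 2 and 2 were exon3 sites. Over all listed genes, 32.9% had a single PAS. *Psmb11* encodes the catalytic subunit known from the thymus, and it had the most sites of the 48 genes. Its 7 exon53 sites on the plus strand of chromosome 14 ran from 55245264 to 55247768, a span of 2504 nt, and an exon53ext site followed 2327 nt further downstream at 55250095. The label exon53 is read here as a single-exon gene. A place in the list does not say that a gene was highly expressed, because the reads at these sites were not examined.

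The 6 ATPases of the base held 14 PASs, of which 10 belonged to *Psmc2* and *Psmc6*. *Psmc1*, *Psmc3*, *Psmc4* and *Psmc5* had 1 exon3 site each. *Psmc6* had 4 exon3 sites and no other label, at 45968446, 45968502, 45968749 and 45969368 on chromosome 14. The distances between them grew downstream, from 56 to 247 and 619 nt, and the span of 922 nt was the widest of the class. *Psmc2* had the most sites of the class, 6, spread over 17263 nt of the plus strand of chromosome 5. An intron_Comp site at 21292340 came first, exonI sites followed at 21307159 and 21309059, and exon3 sites lay at 21309435, 21309572 and 21309603, within 168 nt of each other. The second exonI site was only 376 nt upstream of the first exon3 site.

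The 14 genes with Psmd symbols encode the non-ATPase subunits and, in *Psmd5*, *Psmd9* and *Psmd10*, chaperones that help to assemble the regulatory particle. None of them had an intronic PAS, which was listed for 33.5% of all listed genes. Of their 25 sites, 23 were labelled exon3. A single site was listed for 8 of these genes, where the share over all listed genes was 32.9%. Among the 8 were *Psmd1* and *Psmd2*, the large scaffold subunits, and *Psmd4*, a ubiquitin receptor. Of all listed genes with an exon3 site, 49.5% had 2 or more, and all 3 assembly chaperones had 2. The exon3 sites of these chaperones lay 201 nt apart in *Psmd5* and 435 nt apart in *Psmd9*. In *Psmd10* they lay 513 nt apart, at 137483479 and 137482966 on chromosome X, the widest exon3 span of the class. *Psmd14*, the deubiquitinase that removes ubiquitin from substrates, had sites at 61638157 and 61638433 on chromosome 2, 276 nt apart. *Psmd8* had 4 exon3 sites on the minus strand of chromosome 7, at 29959548, 29959477, 29959273 and 29959206, and *Psmd12* had 3 on chromosome 11, at 107359114, 107359185 and 107359354. In *Psmd5*, 2 UA sites were listed on the plus strand of chromosome 2 at 34727345 and 34728488, 1143 nt apart.

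Activators bind the ends of the core in place of the regulatory particle. The 3 listed activator genes held 10 PASs, and each had 2 or more, as did 67.1% of all listed genes. *Psme3*, which encodes the nuclear activator, had intron_Comp sites at 101182576 and 101182923 on chromosome 11, only 769 and 422 nt upstream of the first exon3 site at 101183345. Its last exon3 site was 1500 nt downstream at 101184845, so that all 4 sites lay within 2269 nt. *Psme4*, which encodes the large activator PA200, had its intron_Comp site at 30726393, 53913 nt upstream of the first exon3 site and the most distant of all proteasome genes. Its exon3 sites at 30780306 and 30780359 were 53 nt apart, and an exon3ext site lay 301 nt beyond them at 30780660. *Psme1*, an interferon-responsive activator subunit, had an exonI site at 56198878 on chromosome 14 and an exon3 site 1484 nt downstream at 56200362. *Psmf1*, the gene of an inhibitor of the core, had exon3 sites at 151543997 and 151542479 on the minus strand of chromosome 2, 1518 nt apart.

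The 4 genes with Psmg symbols encode chaperones that pair up to assemble the alpha ring. *Psmg1* had 7 of their 11 PASs and the most intronic sites of any proteasome gene. On the minus strand of chromosome 16, 4 intron_Comp sites lay at 96212010, 96207979, 96207926 and 96202196, and the exon3 site at 96201540 was 656 nt downstream of the last of them. A pair of UA sites at 96213210 and 96213025 lay on the plus strand, the nearer one 1015 nt before the first intronic site. *Psmg2*, whose protein is the partner of the *Psmg1* product, had 2 exon3 sites, at 67813805 and 67813835 on chromosome 18. They were 30 nt apart, the closest neighbours of any proteasome gene. *Psmg3* and *Psmg4*, which encode the other pair, had 1 exon3 site each. *Psmc3ip* had 2 exon3 sites on chromosome 11, at 100953513 and 100953455, 58 nt apart.

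A proximal and a distal PAS in the 3′-most exon, the pair on which 3′UTR APA (alternative cleavage and polyadenylation) depends, could be formed in 18 of the 46 proteasome genes with an exon3 site (39.1%), against 7466 of 15075 listed genes (49.5%). In these 18 genes the outermost exon3 sites were separated by 259 nt in the median gene, with quartiles of 176 and 820 nt. Over the 7465 listed genes with such a pair on 1 chromosome the median was 817 nt, with quartiles of 258 and 1770 nt. The span was 250 nt or less in 9 of the 18 proteasome genes (50.0%), against 24.4% of the listed genes. None of the 18 reached beyond 2000 nt, as 21.0% of the listed genes did. Neighbouring exon3 sites lay a median of 153 nt apart over the 28 pairs in proteasome genes and 259 nt apart over the 16203 pairs of the list. They were 100 nt or less apart in 13 of the 28 pairs (46.4%), against 28.7% of all pairs. Spans above 800 nt were found in 5 genes, *Psma2*, *Psma3*, *Psmc6*, *Psme3* and *Psmf1*.

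**Figure D3:**
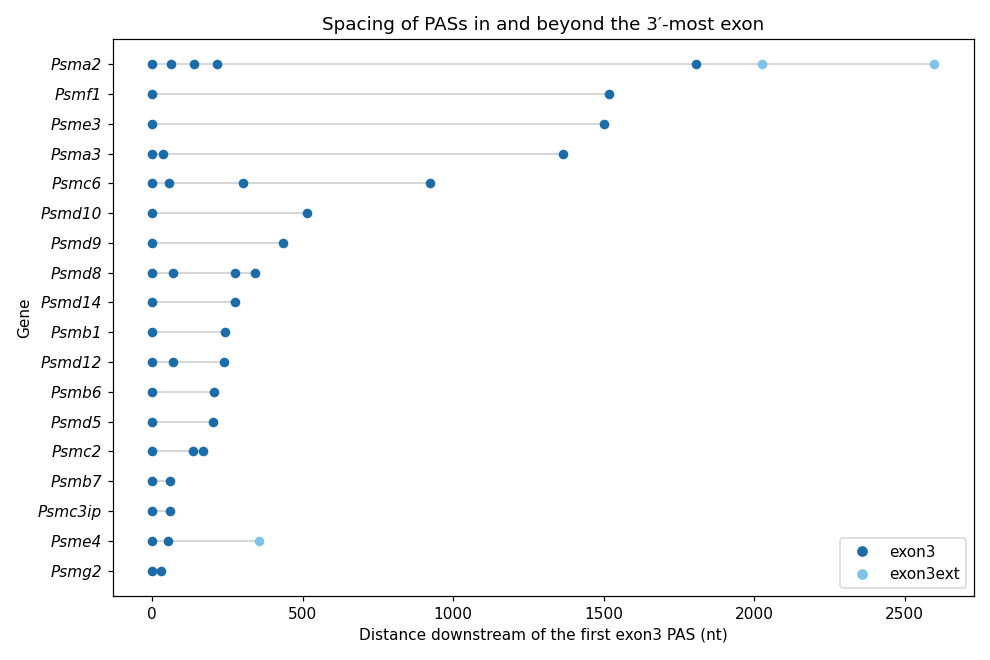
Distance of each exon3 and exon3ext PAS from the first exon3 PAS (nt, horizontal axis) in the 18 proteasome genes with 2 or more exon3 sites, ordered by exon3 span. Spans run from 30 nt in *Psmg2* to 1808 nt in *Psma2*, and 13 of the 18 genes lie below 800 nt.

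An intronic PAS was listed for 8 of the 48 proteasome genes (16.7%), against 5572 of all listed genes (33.5%). The comparison of intronic with 3′UTR isoforms needs an exon3 PAS as well, which was listed for 7 of them, *Psma5*, *Psmb5*, *Psmb7*, *Psmc2*, *Psme3*, *Psme4* and *Psmg1*. All 13 intronic sites of these genes lay upstream of the first exon3 site, at a median distance of 6439 nt. The median was 19973 nt over the 12993 intronic entries in listed genes with an exon3 site. Those distances ran from -301754 to 1615916 nt, where a negative value means downstream of the first exon3 site. The distance was 1000 nt or less for 4 sites, which belong to *Psmb5*, *Psme3* and *Psmg1*. The same count over all listed entries is not given. The lower quartile of the distance was 995 nt in the proteasome genes and 6874 nt over the listed entries. *Psmg1* and *Psma5* together held 7 of the 14 intronic sites. Without these 2 genes, left out after their values were seen, intronic labels made up 7.14% of the remaining entries. No gene was left out of the whole list, so the 7.14% is not comparable with its 27.0%. An exonI site was listed for 4 proteasome genes (8.33%), against 3.08% of all listed genes. UA sites were listed for 3 proteasome genes (6.25%), against 13.8% of all listed genes, and a site beyond the annotated end for 3 genes (6.25%), against 13.0%.

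**Figure D4:**
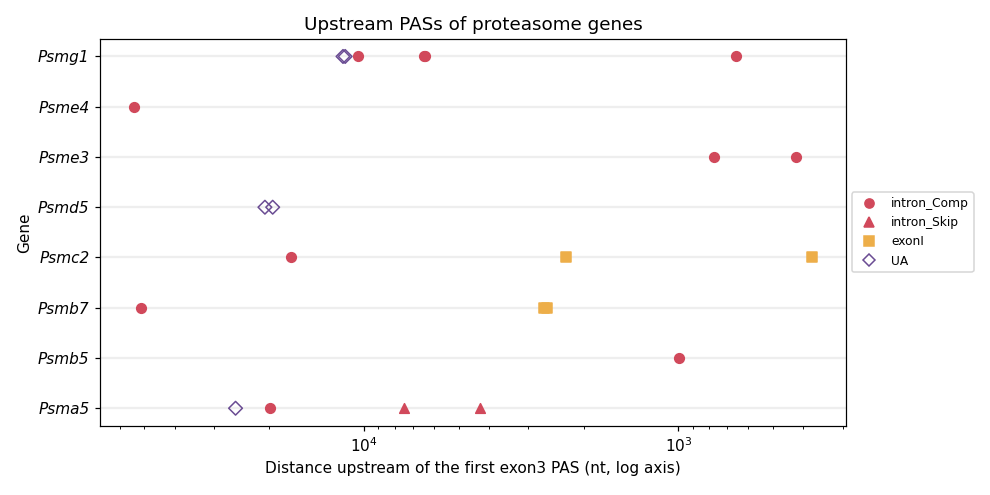
Distance upstream of the first exon3 PAS (nt, log axis, upstream to the left) of intronic, exonI and UA sites in the 8 proteasome genes that have an exon3 site and an intronic or UA site. Intronic sites range from 53913 nt upstream in *Psme4* to 422 nt in *Psme3*, and overlapping symbols in *Psmg1* and *Psmb7* are neighbouring sites.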

How the data were processed

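3′READS+ libraries were prepared by the authors from 1 ug of RNA per sample. Per the labels and the methods of the study, reads were mapped to the mouse genome (mm9) with Bowtie2, reads with 2 or more unaligned Ts at the 5′ end identified PASs, and PASs within 24 nt were clustered. The deposited table is 1 list for all libraries. Its position column gives the place of each site in bases (unit other, with no normalization). The 12 columns of read counts were left out because their names match no sample label. Entries, genes, labels and distances were computed from the list in pandas 2.3.3 and numpy 2.4.6 under Python 3.11.15, and matplotlib 3.10.9 drew the plots. The counting was tested on simulated data with known answers. Distances follow the strand of the gene. Wilson intervals at the 95% level (scipy 1.17.1), used only to judge whether a share moved, cover counting error alone. All 48 symbols matched an Ensembl identifier in GENCODE M21, from which no coordinates were taken. The members, classes and lists were chosen with earlier results of these data known. Genes are named by class, with positions for the gene with the most sites, the widest exon3 span, and any intronic, UA or extended site. Further genes were named after their values were seen.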

Additional observations from a re-analysis of the deposited data

How the results depend on the processing

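The planned tests of LTP against control slices, with their alternatives (DESeq2, no filter, each replicate left out), were not run, because they need read counts assigned to samples. No paired analysis was possible because no column of reads could be tied to an animal by its name. Among the 48 genes, the number with 2 or more exon3 sites was 18 as reported and with exon3ext sites added. It was 14 with sites within 100 nt counted as 1. Over all listed genes the same number was 7466 as reported, 8257 with exon3ext sites added and 6429 with sites within 100 nt counted as 1. Among the proteasome genes it was 13 for Psma to Psmd symbols other than *Psmc3ip* and 17 without *Psmc3ip*. The number of entries was 110 as reported, still 110 when sites shared between genes were dropped, 105 without UA sites and 102 without *Psmb11*. In the whole list it was 56204 as reported, 55548 without shared sites and 52209 without UA sites. The number of genes with an intronic site was 8 of 48 (16.7%), also for intron_Comp alone. Over all listed genes it was 5572, and 5152 for intron_Comp alone. For these Psma to Psmd symbols it was 5 of 39 (12.8%), so the share was lower there as well. The median exon3 span was 259 nt, 309 nt with exon3ext sites added (1002 nt over all listed genes), and 276 nt for the same Psma to Psmd symbols. The intronic share of the entries was 12.7%, and 7.14% without *Psmg1* and *Psma5*. The number of genes with an opposite-strand site near an exon3 site was 6 within 1000 nt, 4 within 500 nt (8.70%, against 9.87% of listed genes) and 10 within 2000 nt (21.7%, against 17.4%). The settings that leave out *Psmc3ip*, *Psmb11*, or *Psmg1* and *Psma5*, and those on opposite-strand sites, were chosen after seeing the data. Every value counts sites and takes no account of their reads, and whether the number of listed sites follows expression or gene length was not tested.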

Other observations

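Some proteasome genes end close to a neighbour on the other strand, within 500 or 1000 nt at about the share of all listed genes. This comparison was made after the positions were seen. The exon3 site of *Psme1* on chromosome 14, at 56200362 on the plus strand, lay 6 nt from an exon3 site of *Fam158a* on the minus strand at 56200356, so the listed ends of these transcripts overlap. In *Psmd8* on chromosome 7, the site at 29959273 lay 15 nt from an exon3ext site of *Ggn* at 29959258. The last exon3 site of *Psmd8*, at 29959206 on the minus strand, lay beyond that *Ggn* site, so the listed ends of this pair overlap as well. *Psmc5*, which encodes an ATPase of the base, ended at 106124434 on chromosome 11, 61 nt from an exon3 site of *Smarcd2* at 106124495, and *Psmd13* ended at 148084541 on chromosome 7, 300 nt from an exon3 site of *Cox8b* at 148084841. An opposite-strand PAS of another gene, UA sites left out, lay within 1000 nt of an exon3 site in 6 of the 46 proteasome genes with such a site (13.0%) and in 1962 of 15075 listed genes (13.0%). Within 500 nt the shares were 8.70% and 9.87%. The median distance to the nearest such site was shorter in the proteasome genes, 16379.5 nt against 30465 nt in listed genes. This difference was not tested.

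Of 15 names searched for genes that act with the proteasome but lie outside the Psm symbols, 13 were found in the list, with 75 PASs in all. The names not found were *Paaf1* and *Sem1*, and the gene of the latter was listed under its other symbol, *Shfm1*. *Pomp*, which encodes the assembly factor of the beta rings, had a single exon3 site, and *Adrm1*, a ubiquitin receptor of the regulatory particle, had 1 exon3 site and 2 UA sites. *Usp14* and *Uchl5*, deubiquitinases that bind the particle, had 2 and 3 exon3 sites, and *Uchl5* also had 2 intronic sites. *Nfe2l1*, a transcription factor that induces proteasome genes, had 3 exon3 sites over 633 nt. The most sites stood under AI314180, the symbol of the gene for the Ecm29 proteasome adaptor, with 14 intronic, 14 UA and 3 exon3 sites among its 32. At least 2 exon3 sites were listed for 9 of the 12 genes with such a site, where the share over all listed genes was 49.5%, and an intronic site for 5 of the 13, where it was 33.5%.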
